A study of Mus musculus with 9 samples.

Results

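Rbm3 and Cirbp encode a pair of small cold-inducible RNA-binding proteins, and both were measured by bulk RNA sequencing in mouse cortex. Each was read as 1 row of the count table, so the 2 genes are 2 of 34714 rows. They were chosen by name from measured values, their read counts scaled to library size (CPM) in all 3 groups being already known, so their own levels and fold changes are given as a description with no test. The groups were 3 samples from mice that had EAE (experimental autoimmune encephalomyelitis, used to model multiple sclerosis) and received the gold nanocluster Au18(L-NIBC)14, 3 from mice with EAE and no stated treatment, and 3 from naive mice, titled control. The sources used here do not give the strain, sex, age, dose, day of collection or how EAE was induced. The labels number the brains in each group from 1 to 3, and each p-value below is set against the spread among these brains alone. EAE replicate 1 stood apart in markers of the choroid plexus, the tissue that makes cerebrospinal fluid, and values without it are given for Rbm3, Cirbp, the called genes of the lists and Trpm3.

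RBM3 and CIRBP each carry 1 RNA-recognition motif followed by a glycine-rich tail. Their transcripts increase when cells are cooled by a few degrees and decrease on warming, and in the mouse both follow the daily rhythm of body temperature. RBM3 is known in the mouse brain for preserving synapses after cooling, partly by raising synthesis of the reticulon RTN3. CIRBP binds transcripts such as that of the clock gene Clock, and, released from cells, it acts as an inflammatory signal through the receptor TLR4. At warmer temperature some Rbm3 transcripts include a poison exon and are then degraded.

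Rbm3 lies on the minus strand of chromosome X from 8138975 to 8145880 in GRCm38 (ENSMUSG00000031167). GENCODE M21 lists 11 transcripts for it, of which 6 are protein coding, 2 are targets of nonsense-mediated decay and 2 retain an intron. Cirbp lies on the plus strand of chromosome 10 from 80165985 to 80172786 (ENSMUSG00000045193), with 7 transcripts, 2 of them protein coding, 1 a decay target and 4 with a retained intron. Counts are per gene, so these isoforms cannot be told apart here. In GENCODE M21, 94 bases of Rbm3 exons, 2% of their merged length, overlap the antisense gene Rbm3os, and no exon of another gene overlaps Cirbp.

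The Cirbp promoter is shown because it holds the octamer TCCCCGCC, the mild cold response element through which the transcription factor SP1 is known to act on this gene. The sequence is from RefSeq, GRCm38.p6, chr10:80167589-80167838 on the plus strand, the 250 bases before an annotated start, with that octamer in capitals.
Cirbp promoter: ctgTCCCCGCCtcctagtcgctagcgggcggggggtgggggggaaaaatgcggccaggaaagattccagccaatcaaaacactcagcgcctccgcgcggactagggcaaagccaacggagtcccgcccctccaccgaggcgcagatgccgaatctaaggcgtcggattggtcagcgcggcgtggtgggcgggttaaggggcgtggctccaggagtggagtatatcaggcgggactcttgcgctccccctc
The octamer starts 247 bases before that start site. On either strand it occurs in 5.38% of 32851 RefSeq promoter windows of 300 bases, and it is not in the window of the other annotated Cirbp start. The core of a heat shock element, written GAANNTTC, occurs in 7.86% of those windows and in neither Cirbp window. The match is a description of the letters, and no binding was measured.

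Rbm3 was higher in every EAE library than in every treated or naive library. It stood at 73.3, 66.3 and 68.2 CPM in treated replicates 1 to 3, from counts of 3003, 2794 and 1856. In EAE replicates 1 to 3 it stood at 122, 112 and 110 CPM, from counts of 3774, 3469 and 3175. In naive replicates 1 to 3 it stood at 75.4, 76.5 and 73.0 CPM, from counts of 3372, 2085 and 2119. The lowest EAE library thus lay well above the highest of the other 6, while the treated and naive values overlapped, treated replicate 1 lying just above naive replicate 3. The means were 69.3 ± 3.66 CPM in treated EAE, 115 ± 6.55 CPM in EAE and 74.9 ± 1.75 CPM in naive cortex (SD, n = 3 each).

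In EAE against naive cortex, the log2 fold change of Rbm3 was 0.62 (SE 0.067), a level 53.4% higher in EAE. Between treated and untreated EAE it was -0.73 (SE 0.067), which is 0.602 times the untreated level. In treated EAE against naive it was -0.11 (SE 0.067). Without EAE replicate 1 the first value was 0.57 and the second -0.69. The comparisons share samples, since the same EAE libraries stand in the first and the second and the same naive and treated libraries in the third. The submitters' own threshold for a called gene, per the design text, was an absolute log2 fold change above 1, which Rbm3 did not reach in any comparison.

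Cirbp differed less between groups than Rbm3. It stood at 69.1, 67.5 and 60.5 CPM in treated replicates 1 to 3, from counts of 2830, 2847 and 1647. In EAE replicates 1 to 3 it stood at 86.0, 84.9 and 73.0 CPM, from counts of 2650, 2625 and 2102. In naive replicates 1 to 3 it stood at 66.8, 76.1 and 73.9 CPM, from counts of 2990, 2076 and 2143. EAE replicates 1 and 2 were the highest of the 9 libraries, but EAE replicate 3 lay below naive replicates 2 and 3, so the EAE and naive groups overlapped. The treated group lay wholly below the EAE group and overlapped the naive group.

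The Cirbp means were 65.7 ± 4.57 CPM in treated EAE, 81.3 ± 7.20 CPM in EAE and 72.3 ± 4.85 CPM in naive cortex (SD, n = 3 each). The log2 fold changes of Cirbp were 0.17 (SE 0.087) in EAE against naive and -0.31 (SE 0.087) in treated against untreated EAE. In treated EAE against naive the value was -0.14 (SE 0.087). Without EAE replicate 1 the first value was 0.13 and the second -0.27. The EAE mean was above the naive mean by little more than the SD of the EAE group, and the treated mean was below the EAE mean by more than that spread.

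The order of the group means was the same for both genes, EAE highest, then naive, then treated EAE. The naive and treated neighbours in that order overlapped for both genes, and the EAE and naive neighbours overlapped for Cirbp. Of the 2 genes, 1 had all EAE libraries above all naive libraries, a pattern found in 12.2% of the 18644 genes tested. Both had all treated libraries below all EAE libraries, a pattern found in 9.28% of them. Because the genes were chosen from these values, nothing is read from those counts.

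The ratio of Rbm3 to Cirbp counts within a library does not depend on library scaling. It was 1.06, 0.981 and 1.13 in treated replicates 1 to 3, 1.42, 1.32 and 1.51 in EAE replicates 1 to 3, and 1.13, 1.00 and 0.989 in naive replicates 1 to 3. Its mean was 1.06 ± 0.073 in treated EAE, 1.42 ± 0.095 in EAE and 1.04 ± 0.076 in naive cortex (SD, n = 3 each). The 3 EAE libraries lay above the other 6 in this ratio, with no overlap. The ratio is made from the same counts as the levels above, so nothing further is read from it.

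**Figure D1:**
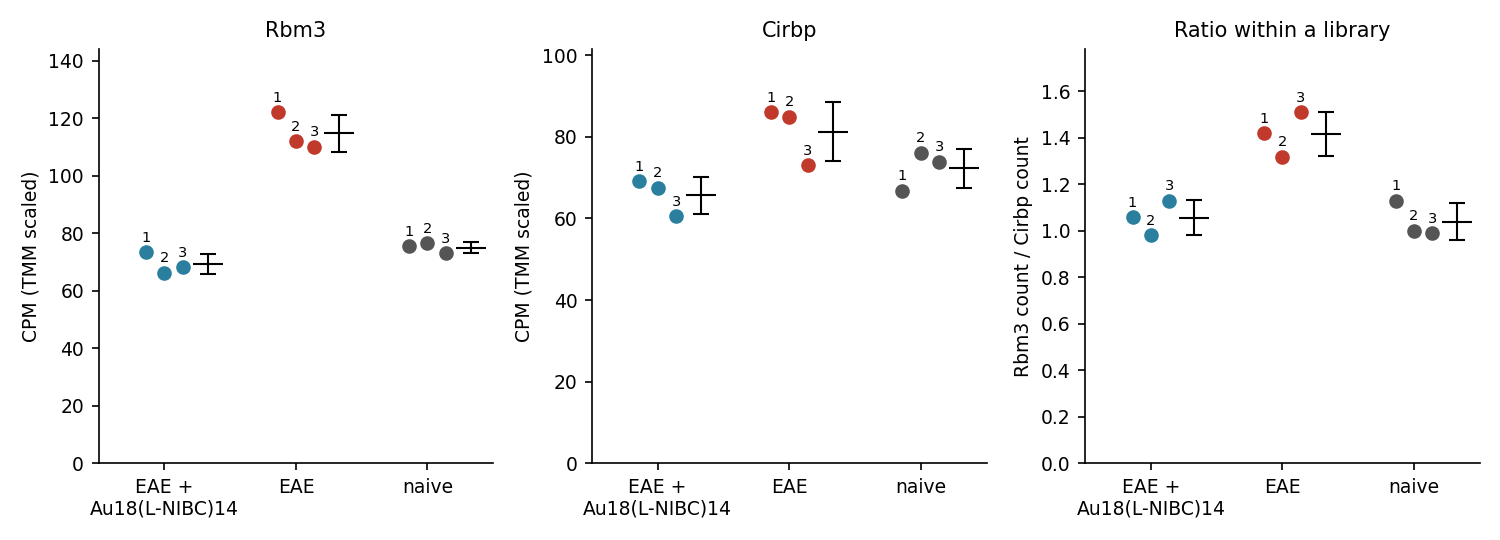
Rbm3 and Cirbp in CPM (left and middle) and the ratio of their counts within a library (right) for the 3 groups. Points are libraries numbered by replicate, and the bar beside them is the mean ± SD (n = 3): the Rbm3 points of EAE lie between 110 and 122 CPM and the others between 66.3 and 76.5 CPM, while the Cirbp points of EAE (73.0 to 86.0 CPM) overlap those of naive cortex (66.8 to 76.1 CPM).

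Both genes were abundant among the tested genes and varied little between animals of a group. Over the 9 libraries Rbm3 averaged 86.4 CPM and Cirbp 73.1 CPM, and 15.6% and 18.7% of tested genes had a higher mean. The biological coefficient of variation estimated by edgeR was 7.79% for Rbm3 and 9.15% for Cirbp, against 11.7% and 11.6% for genes of like abundance. From its lowest to its highest library Rbm3 spanned 1.85-fold and Cirbp 1.42-fold. Which of the 2 genes had the higher level per length depended on the length used. Per kilobase of merged exons (4698 and 2604 bases) the mean level was 18.4 CPM for Rbm3 and 28.1 CPM for Cirbp, whereas with the shortest principal transcript of each (1152 and 1321 bases) it was 75.0 and 55.3 CPM.

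None of the genes next to Rbm3 and Cirbp passed an edgeR adjusted p of 0.05 in any comparison. Wdr13, 6082 bases from Rbm3, averaged 298 ± 17.0 CPM in EAE and 291 ± 4.89 CPM in naive cortex (SD, n = 3 each), with a log2 fold change of 0.04 (SE 0.071, adjusted p = 0.854 by edgeR). Tbc1d25, 8591 bases away on the other side, had log2 fold changes of -0.07 (SE 0.11, adjusted p = 0.826 by edgeR) in EAE against naive and 0.14 (SE 0.11, adjusted p = 0.593 by edgeR) in treated against untreated EAE. Beside Cirbp, Midn, 7616 bases away, and Fam174c, with 157 bases between it and Cirbp, had edgeR adjusted p of 0.579 or more in both of these comparisons.

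Rbm3os was counted in a row of its own and was rare, with 0.339 ± 0.087 CPM in treated EAE, 0.288 ± 0.027 CPM in EAE and 0.409 ± 0.093 CPM in naive cortex (SD, n = 3 each). Its log2 fold change in EAE against naive was -0.49 (SE 0.36, adjusted p = 0.561 by edgeR), the other direction from Rbm3. Without a stated strand setting, reads of the shared bases cannot be assigned to a strand. The Rbm3 transcripts also match, at 95% identity or more over at least 100 bases, the pseudogenes Rbm3-ps, Gm10156, Gm13624 and Gm48583, which have no row in the table, and a transcript of Phospho2 over 380 bases at 97.4%. Phospho2, a phosphatase gene named here because of that match, had 21.9 ± 1.27 CPM in EAE and 20.9 ± 1.65 CPM in naive cortex (SD, n = 3 each), and its log2 fold change was 0.07 (SE 0.087, adjusted p = 0.772 by edgeR). The sources used here do not say how reads that match several copies were counted. No such match was found for Cirbp, and Rbm3 and Cirbp transcripts gave no alignment with each other in that search.

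**Figure D2:**
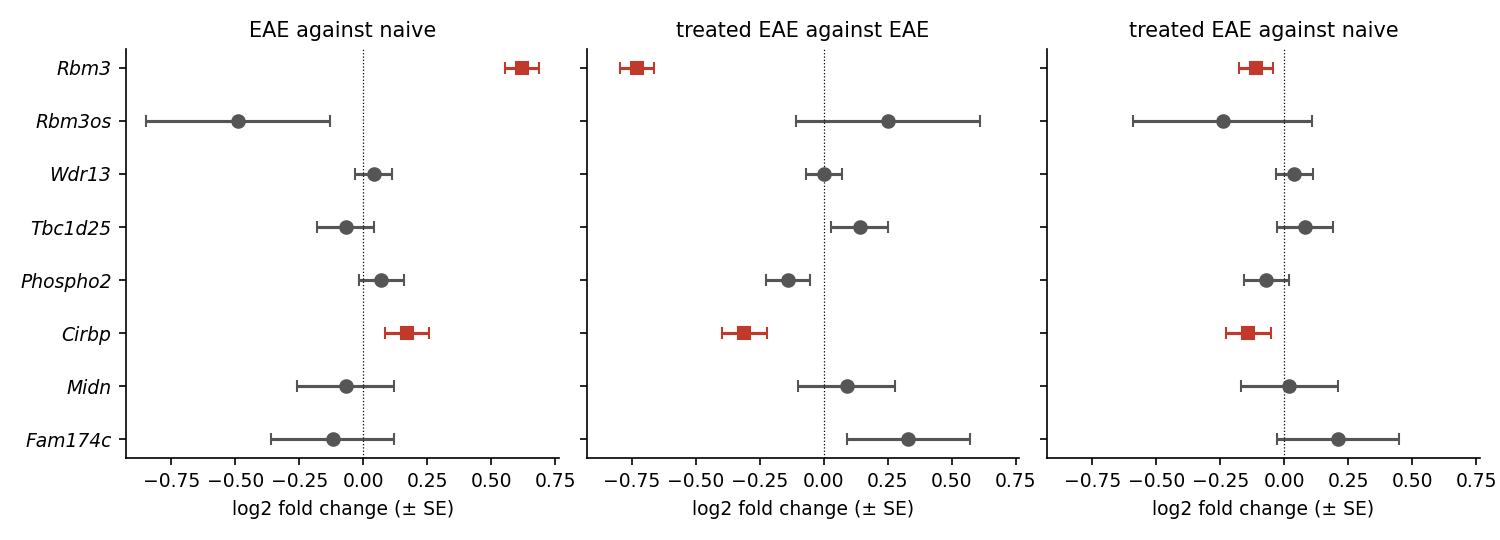
Log2 fold changes (points, ± SE) of Rbm3 and Cirbp (red squares) and, as grey circles, of the antisense gene Rbm3os, the nearest genes on either side of each, and Phospho2, in the 3 comparisons. Rbm3 lies at 0.62 in EAE against naive and -0.73 in treated against untreated EAE, away from its neighbours Wdr13 and Tbc1d25, which lie between -0.07 and 0.14 in these panels.

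Genes tied to Rbm3 and Cirbp by function were followed in 10 lists with 131 genes, 127 of them tested. In EAE against naive, 5 of the 127 (3.94%) passed the edgeR test, all higher in EAE, where 0.987% of all tested genes passed in either direction, 0.735% higher and 0.252% lower. With treatment against EAE alone none of the 127 passed edgeR, where 0.22% of all tested genes did, 0.0912% higher and 0.129% lower (41 genes, but 4 with a replicate block fitted to these groups alone and 3 with these groups alone and no block). In treated EAE against naive none passed, and the share of all tested genes was 0 as well (edgeR, with 318 genes, 1.71%, at an unadjusted p under 0.05, and 3 genes, 0.0161%, with DESeq2).

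The looser counts given for each list below are read against all tested genes. An unadjusted edgeR p under 0.05 was found in 16.4% of all tested genes in EAE against naive and in 15.1% in treated against untreated EAE, and in 35 (27.6%) and 36 (28.3%) of the 127 listed genes. DESeq2 called 6.06% of all genes it gave an adjusted p in EAE against naive and 4.44% in treated against untreated EAE, and 20 (15.9%) and 18 (14.4%) of the listed genes. The lists overlap and were chosen with earlier results known, so nothing particular to them is read from these shares. The 5 edgeR calls depended on the libraries: none of the 5 list calls was made when any 1 naive library or EAE replicate 2 was left out, and 1 was made without EAE replicate 3, while 5 were made without EAE replicate 1.

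Of 11 regulators of Rbm3 and Cirbp expression, 1 passed in EAE against naive, with a list median log2 fold change of 0.03 against -0.01 for all tested genes. That gene was Trpv4, a warmth-sensitive cation channel through which cooling is reported to act on both genes in cultured cells. Trpv4 had 6.56, 5.30 and 3.44 CPM in EAE replicates 1 to 3 and 1.23, 1.47 and 1.79 CPM in naive replicates 1 to 3, so the groups did not overlap. Its log2 fold change was 1.78 (SE 0.28, adjusted p = 0.028 by edgeR), and 1.56 (adjusted p = 0.0428 by edgeR) without EAE replicate 1. Without that library the other 4 called genes, described below, also passed, at 1.49 for Hspb1, 1.05 for Hspb8, 1.14 for Slc2a1 and 1.35 for Hk2. Trpv4 is also abundant in the choroid plexus. The summed CPM of 6 choroid plexus markers, none of which passed in EAE against naive, was 18.6, 12.2 and 8.27 in treated replicates 1 to 3, 896, 25.4 and 104 in EAE replicates 1 to 3 and 11.9, 30.4 and 44.8 in naive replicates 1 to 3, and the part of this tissue in the Trpv4 values was not tested.

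The receptor gene of the pathway through which RBM3 responds to cooling in mouse neurons, Ntrk2, which encodes TrkB, had 719, 870 and 732 CPM in EAE replicates 1 to 3 and 634, 662 and 632 CPM in naive replicates 1 to 3. Its log2 fold change was 0.27 (SE 0.084) and missed the edgeR threshold (adjusted p = 0.154). The ligand gene Bdnf (-0.22, SE 0.21), Plcg1 (0.03, SE 0.075) and Creb1 (-0.09, SE 0.071), which act below the receptor or activate it, had edgeR adjusted p of 0.574 or more. Hnrnph1, whose product controls the poison exon of RBM3 in human cells, had a log2 fold change of 0.01 (SE 0.074, adjusted p = 0.968 by edgeR), and Sp1 one of 0.10 (SE 0.11, adjusted p = 0.722 by edgeR). Of the 11 regulators, 3 had an unadjusted edgeR p under 0.05 in EAE against naive, and DESeq2 called 3. In treated against untreated EAE none of the 11 passed edgeR, with 4 at an unadjusted p under 0.05 and 2 called by DESeq2. These names beyond Trpv4 were picked for their roles after the values were seen.

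Clk1 and Clk4 encode kinases of splicing factors whose activity increases as body temperature decreases. Clk1 had 147, 154 and 150 CPM in EAE replicates 1 to 3 and 106, 122 and 114 CPM in naive replicates 1 to 3. Those groups did not overlap, but the log2 fold change of 0.40 (SE 0.086) missed the edgeR threshold (adjusted p = 0.0605) and passed with DESeq2 (adjusted p = 0.00187). Between treated and untreated EAE its value was -0.38 (SE 0.086, adjusted p = 0.106 by edgeR, DESeq2 adjusted p = 0.00482). Clk4 had log2 fold changes of 0.19 (SE 0.11, adjusted p = 0.420 by edgeR) and -0.28 (SE 0.11, adjusted p = 0.259 by edgeR) in the same comparisons.

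None of the 18 SR splicing factors and their kinases passed edgeR in EAE against naive or in treated against untreated EAE, with 4 and 5 at an unadjusted p under 0.05 (against 16.4% and 15.1% of all genes) and 1 and 2 called by DESeq2 (against 6.06% and 4.44%). Srsf5, itself a cold-inducible transcript, had 277, 312 and 297 CPM in EAE replicates 1 to 3 and 243, 265 and 254 CPM in naive replicates 1 to 3. The log2 fold change of Srsf5 was 0.22 (SE 0.071, adjusted p = 0.166 by edgeR), and -0.24 (SE 0.071, adjusted p = 0.167 by edgeR) in treated against untreated EAE. Srsf5 was named for its response to cold after its values were seen.

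Of 9 mRNAs known to be bound or stabilised by RBM3 or CIRBP, none passed edgeR in EAE against naive, with 2 at an unadjusted p under 0.05 and 1 called by DESeq2. The smallest p was that of Vegfa, an angiogenic factor gene, which had 78.1 ± 7.65 CPM in EAE and 106 ± 4.58 CPM in naive cortex (SD, n = 3 each), and its log2 fold change was -0.44 (SE 0.12, adjusted p = 0.105 by edgeR). Rtn3, the RBM3 target in mouse synapses, had 991 ± 63.1 CPM in EAE and 1110 ± 54.5 CPM in naive cortex, and its log2 fold change was -0.17 (SE 0.082, adjusted p = 0.349 by edgeR). These are RNA levels, and synthesis of the RTN3 protein was not measured. Clock had a log2 fold change of -0.06 (SE 0.090, adjusted p = 0.806 by edgeR). None of the 9 passed edgeR between treated and untreated EAE, with 2 at an unadjusted p under 0.05 and 0 called by DESeq2, and Vegfa had the smallest p there too, at 0.38 (SE 0.12, adjusted p = 0.179 by edgeR).

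Of the 4 receptors of extracellular CIRBP, 3 were tested, and none passed edgeR in EAE against naive, with 2 at an unadjusted p under 0.05 and 2 called by DESeq2. Il6ra, a cytokine receptor gene, had 6.20, 7.76 and 4.79 CPM in EAE replicates 1 to 3 and 2.99, 3.74 and 4.31 CPM in naive replicates 1 to 3 (log2 fold change 0.77, SE 0.20, adjusted p = 0.103 by edgeR). Tlr4 had 2.53, 4.79 and 3.44 CPM in EAE replicates 1 to 3 and 2.19, 1.87 and 1.28 CPM in naive replicates 1 to 3 (log2 fold change 1.00, SE 0.28, adjusted p = 0.114 by edgeR). All EAE values lay above all naive values in these genes and in Ly96, the partner of TLR4, as they did in 12.2% of all tested genes. Ly96 was below 1 CPM throughout, and Trem1 was not tested, with at most 10 counts in a library. Between treated and untreated EAE none passed edgeR, with 1 at an unadjusted p under 0.05 and 0 called by DESeq2, and Il6ra was nearest, at -0.48 (SE 0.20, adjusted p = 0.303 by edgeR).

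Heat shock genes serve as a counterpart, since heat induces them. Of 20 tested, 2 passed in EAE against naive, both small heat shock proteins. Hspb1 had 5.0, 6.44 and 7.30 CPM in EAE replicates 1 to 3 and 2.55, 2.20 and 2.58 CPM in naive replicates 1 to 3, a log2 fold change of 1.35 (SE 0.20, adjusted p = 0.0221 by edgeR). Hspb8 had a log2 fold change of 0.91 (SE 0.17, adjusted p = 0.0401 by edgeR). Hspb1 is also known as a gene of reactive astrocytes. The list median was -0.14, and 12 of the 20 members were below 0. An unadjusted edgeR p under 0.05 was found in 7 of the 20 (against 16.4% of all genes). DESeq2 called 3 members higher and 1 lower in EAE (against 6.06%).

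Among the larger chaperones, Hsph1 had 204, 183 and 207 CPM in EAE replicates 1 to 3 and 302, 240 and 261 CPM in naive replicates 1 to 3, with no overlap, as in the 11.8% of all tested genes whose EAE values all lay below the naive ones. The log2 fold change of Hsph1 was -0.43 (SE 0.098, adjusted p = 0.0703 by edgeR, DESeq2 adjusted p = 0.00261). Between treated and untreated EAE it was 0.46 (SE 0.098, adjusted p = 0.0953 by edgeR, DESeq2 adjusted p = 0.00218). Hsp90aa1, the inducible cytosolic HSP90, had values of -0.28 (SE 0.095, adjusted p = 0.179 by edgeR) and 0.34 (SE 0.095, adjusted p = 0.157 by edgeR), of which DESeq2 called the one between treated and untreated EAE (adjusted p = 0.0283). Hsf1, which encodes the heat shock factor, had a log2 fold change of 0.02 (SE 0.092, adjusted p = 0.941 by edgeR) in EAE against naive. None of the 20 passed edgeR in treated against untreated EAE, with 11 at an unadjusted p under 0.05 (against 15.1% of all genes) and 4 called by DESeq2 (against 4.44%), and the list median was 0.13. Hspb1 had the smallest p there, at -1.08 (SE 0.19, adjusted p = 0.0727 by edgeR).

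The other RNA-binding families did not pass edgeR. Of 26 hnRNP and FET genes, 4 had an unadjusted p under 0.05 in EAE against naive and 2 were called by DESeq2, shares close to the 16.4% and 6.06% of all genes. Hnrnpa1, a splicing regulator, had 182, 172 and 177 CPM in EAE replicates 1 to 3 and 213, 210 and 209 CPM in naive replicates 1 to 3, a log2 fold change of -0.25 (SE 0.056, adjusted p = 0.0685 by edgeR, DESeq2 adjusted p = 2.17e-05). Rbmx, whose product carries an RNA-recognition motif like RBM3 and CIRBP, had a log2 fold change of -0.04 (SE 0.069, adjusted p = 0.832 by edgeR). Of 7 tested genes of cold shock domain proteins, none had an unadjusted p under 0.05 or a DESeq2 call in EAE against naive, and Csdc2 was nearest, at 0.09 (SE 0.066, adjusted p = 0.565 by edgeR). Between treated and untreated EAE, 3 of the 26 and 0 of the 7 had an unadjusted p under 0.05, and DESeq2 called 3 and 0. The smallest p there were those of Hnrnpa1, at 0.30 (SE 0.056, adjusted p = 0.0758 by edgeR), and of Carhsp1, at -0.33 (SE 0.20, adjusted p = 0.496 by edgeR).

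Other conditions that act on Rbm3 and Cirbp, hypoxia and the daily rhythm, were followed in the same way. Of 14 hypoxia-induced genes, 2 passed in EAE against naive, with a list median of 0.09. An unadjusted edgeR p under 0.05 was found in 6 of the 14, and DESeq2 called 3 higher and 2 lower. Slc2a1, the glucose transporter of the blood-brain barrier, had a log2 fold change of 1.00 (SE 0.16, adjusted p = 0.028 by edgeR). Hk2, a hexokinase gene, had one of 1.15 (SE 0.22, adjusted p = 0.046 by edgeR), and its call was lost with only these groups fitted (adjusted p = 0.0659 by edgeR). Other genes of the list such as Vegfa, above, and Ldha (-0.42, DESeq2 adjusted p = 0.0154) had values below 0, and in treated against untreated EAE none of the 14 passed edgeR, with 6 at an unadjusted p under 0.05 and 3 called by DESeq2. Ldha, a glycolytic enzyme gene, was nearest there, at 0.50 (SE 0.11, adjusted p = 0.106 by edgeR). DESeq2 called Ldha higher there and 2 genes lower, Slc2a1 (-0.62, DESeq2 adjusted p = 0.00858) and Kdm3a (-0.37, DESeq2 adjusted p = 0.00721).

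Of 19 circadian clock genes none passed edgeR in EAE against naive, with 8 at an unadjusted p under 0.05 (against 16.4% of all genes) and 3 called by DESeq2 (against 6.06%). The clock list had a median of 0.17, and the smallest p was that of Tef, a rhythmic transcription factor gene, with 518, 528 and 533 CPM in EAE replicates 1 to 3 and 455, 462 and 442 CPM in naive replicates 1 to 3 (log2 fold change 0.22, SE 0.058, adjusted p = 0.103 by edgeR). None of the 19 passed edgeR between treated and untreated EAE either, with 6 at an unadjusted p under 0.05. DESeq2 called 4 there, 2 higher and 2 lower. The list median was -0.12 there, with 13 members below 0. Dbp, another output gene of the clock, was nearest there, at 0.49 (SE 0.11, adjusted p = 0.111 by edgeR). The sources used here do not give the time of day of collection.

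Among 7 tested temperature-sensitive TRP channels, Trpv4 alone passed edgeR in EAE against naive. An unadjusted edgeR p under 0.05 was found there in 2 of the 7, and DESeq2 called 2. Trpm3, a heat-sensitive channel, had 123, 102 and 101 CPM in EAE replicates 1 to 3 and 46.3, 81.1 and 73.9 CPM in naive replicates 1 to 3, a log2 fold change of 0.70 (SE 0.19, adjusted p = 0.115 by edgeR, DESeq2 adjusted p = 0.0103), and of 0.60 without EAE replicate 1 (adjusted p = 0.247 by edgeR). Trpm3 is also abundant in the choroid plexus, whose marker sums are given above. None of these 7 passed edgeR in treated against untreated EAE, with 2 at an unadjusted p under 0.05 and 2 called by DESeq2, and Trpv4 had a log2 fold change of -1.55 (SE 0.28, adjusted p = 0.0727 by edgeR, DESeq2 adjusted p = 0.000102).

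**Figure D3:**
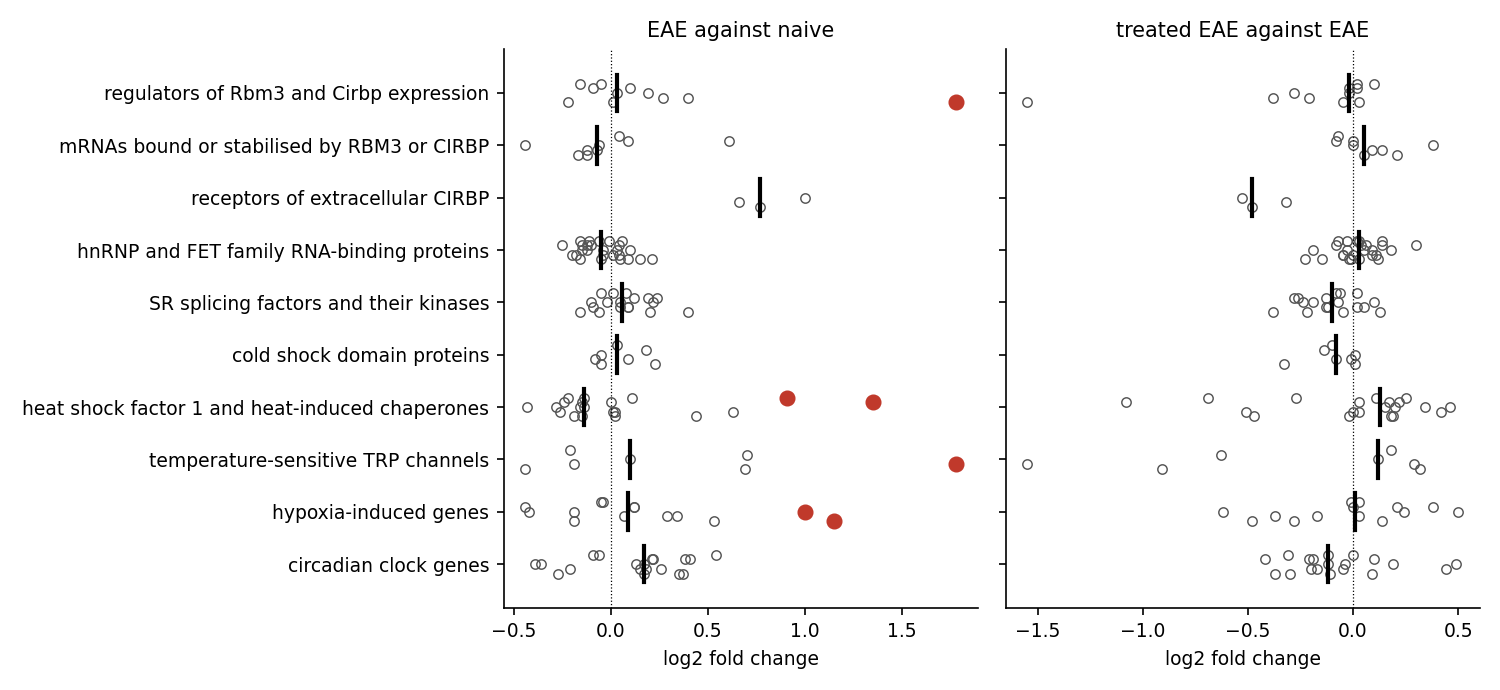
Log2 fold changes of the tested genes of the 10 lists in EAE against naive (left) and in treated against untreated EAE (right), with filled red points for genes past an edgeR adjusted p of 0.05, open points for the others and a vertical bar at each list's median. On the left the 6 filled points are 5 genes, since Trpv4 at 1.78 is in 2 lists, and on the right there is none.

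The genes whose profiles over the 9 libraries were most like that of Rbm3 had their highest levels in EAE. This follows from how they were picked and is no separate result. Likeness was the root mean square difference between log2 CPM profiles, each centred on its own mean, among the 12734 genes whose log2 CPM averaged 2 or more. The nearest to Rbm3 were Slc25a10, a mitochondrial dicarboxylate carrier gene, at 0.119, Spaca6 at 0.125, AY036118 at 0.126, Mir9-3hg, the host gene of a microRNA, at 0.131, Cdc42bpg at 0.132 and Srebf1, a regulator of lipid synthesis, at 0.140. The profile of Rbm3 itself had a root mean square of 0.325 around its mean. Srebf1 had 59.8, 62.8 and 71.0 CPM in treated replicates 1 to 3, 92.2, 108 and 94.8 CPM in EAE replicates 1 to 3, and 63.2, 71.7 and 71.1 CPM in naive replicates 1 to 3. It was higher in all EAE libraries than in the other 6, as its choice by likeness to Rbm3 implies.

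Cirbp was 279th in likeness to Rbm3, at 0.222. In likeness to Cirbp, Rbm3 was only 7096th of 12734 genes, at the same distance. That distance is larger than the root mean square of Cirbp around its own mean, given below. Among the 6 nearest profiles to Cirbp were those of Rpl37rt, a copy of a ribosomal protein gene, at 0.048, Tmem29 at 0.0617, Zfp90 at 0.0632, Zfp938 at 0.072 and Rpl37a, a ribosomal protein gene, at 0.0731. The profile of Cirbp had a root mean square of 0.155 around its mean, so near profiles are also easier to find among genes that vary little. Rpl37a had 64.4, 68.2 and 62.4 CPM in treated replicates 1 to 3, 75.3, 82.3 and 75.4 CPM in EAE replicates 1 to 3, and 64.8, 75.1 and 68.9 CPM in naive replicates 1 to 3. These rankings were made from the same libraries as the levels above and are a description.

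**Figure D4:**
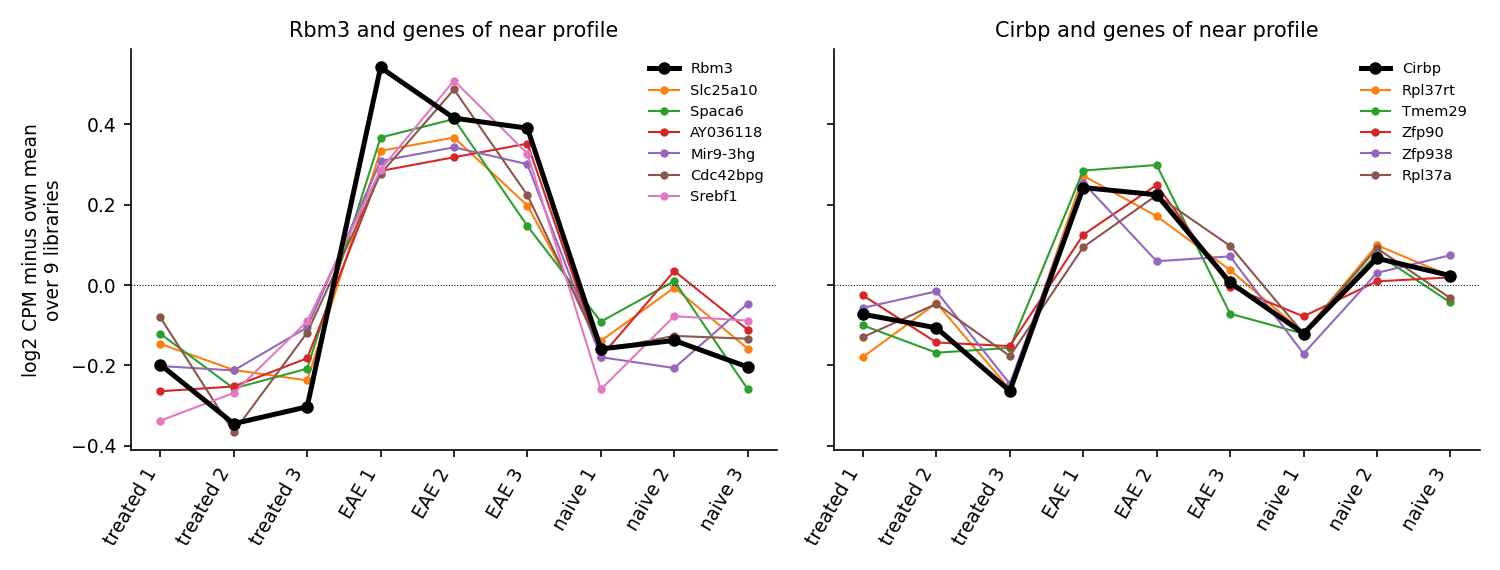
Log2 CPM of Rbm3 (left, black) and Cirbp (right, black) in each library, minus the gene's own mean over the 9 libraries, with 6 (Rbm3) and 5 (Cirbp) of the 6 genes of nearest profile in colour. The Rbm3 panel shows a step up in the 3 EAE libraries in all 7 genes, which follows from the choice by likeness. The Cirbp panel shows a smaller step. In it, EAE replicate 3 of Cirbp is near its own mean and below naive replicates 2 and 3.

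Markers of other cell types also differed between libraries, within groups as well. Striatum markers summed to 261 to 821 CPM in treated EAE, 201 to 1110 CPM in EAE and 180 to 1290 CPM in naive cortex. Oligodendrocyte markers summed to 2750 to 9060 CPM in treated EAE, 4940 to 5730 CPM in EAE and 4510 to 6850 CPM in naive cortex. Total counts ranged from 26972179 to 45243553. Excitatory neuron markers of the cortex were abundant in all libraries, with sums over 6 genes of 5340 to 6140 CPM in treated EAE, 5310 to 5520 CPM in EAE and 4960 to 5780 CPM in naive cortex. Of 12 marker lists, 3 had sums in EAE that did not overlap those of naive cortex, while among single tested genes 24% did not overlap between these groups in 1 or the other direction. Erythrocyte markers summed to 102 to 380 CPM in treated EAE, 7.16 to 23.6 CPM in EAE and 131 to 175 CPM in naive cortex, with 2 of 5 markers called lower by edgeR in EAE against naive. Markers of T cells and monocytes summed to 4.78 to 7.94 CPM in treated EAE, 7.11 to 18.8 CPM in EAE and 4.14 to 5.98 CPM in naive cortex, with 0 of the 3 tested of 6 called. Endothelial markers summed to 213 to 321 CPM in treated EAE, 236 to 329 CPM in EAE and 223 to 224 CPM in naive cortex, with 0 of 5 called. Against untreated EAE, the treated group lay wholly above in erythrocyte markers, 1 of 5 called by edgeR, and wholly below in choroid plexus markers, 0 of 6 called. The other lists overlapped there, and among single tested genes 19.2% did not overlap between these groups in 1 or the other direction. No list had a marker at 0 in all libraries, but 2 of the 6 markers of T cells and monocytes stayed under 10 counts. In bulk tissue more cells of a type and more RNA per cell cannot be told apart, and the part of cell content in the Rbm3 and Cirbp values was not tested.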

How the data were processed

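RNA of 9 cortex samples was sequenced from poly(A)-enriched libraries, per the labels' protocols. The authors deposited raw counts per gene symbol; per the series' design text trimming used fastp, alignment Hisat2 and quantification bowtie2, and per the submitters' processing notes the build was mm10 (GRCm38) and FastQC was version 0.11.8. The sources used here do not give annotation, strand setting or counting options. A further 9 columns matched no sample and were not used. Rows with 2 counts outnumbered those with 1 count by 3.8 to 4.43 times in the libraries, so counts may not be independent fragments, and counting error may exceed what they imply.

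Counts were analysed with edgeR 4.0.16 in R 4.3.3 (filterByExpr, TMM, robust glmQLFit, glmQLFTest) on all 9 libraries with group as the factor, with Benjamini-Hochberg adjustment over 18644 genes and a threshold of 0.05. SE is the absolute log2 fold change over the square root of F. DESeq2 1.42.0 was an alternative, beside other scaling, no filter, fewer groups, left-out libraries and a replicate block. Deviations from group means of same-numbered treated and EAE libraries correlated at 0.17, 0.24 and 0.24. For EAE and naive libraries the values were 0.05, 0.11 and 0.36, and for treated and naive libraries -0.25, -0.12 and 0.2. Correlations between libraries of unlike number were not computed, so these values cannot tell whether libraries are paired. No label states a pairing. The p-values printed are from the fit without a block, and the block was an alternative. Within groups no library was a copy of another (chi-square per degree of freedom 17.3 or more). Pairs of libraries from different groups were not checked.

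Rbm3, Cirbp and all lists were chosen with earlier results of these data known. Named were, by rule, the neighbours, the 6 nearest profiles per gene, and in each list up to 6 called members or else that with the smallest p; others named were picked after their values were seen. Of the nearest profiles to Cirbp, 1 is not reported here. Of the Rbm3 and Cirbp promoters, the RefSeq table used held Cirbp.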

Additional observations from a re-analysis of the deposited data

How the results depend on the processing

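The 6 log2 fold changes of Rbm3 and Cirbp kept their sign under the alternatives run (15 in each comparison with naive, 16 in treated against untreated EAE). They also moved by less than the within-group SD. For the left-out libraries nothing is read from that bound, since leaving out 1 of 3 libraries can hardly move a group mean further. Rbm3 ran from 0.57 to 0.65 in EAE against naive, from -0.79 to -0.69 in treated against untreated EAE and from -0.17 to -0.09 in treated EAE against naive. Cirbp ran from 0.12 to 0.25, from -0.39 to -0.25 and from -0.20 to -0.08. Counts of called genes were less stable, and the cause was not tested. DESeq2 called 1086, 748 and 3 genes in these comparisons, where edgeR called 184, 41 and 0. In treated against untreated EAE edgeR called 3 genes with only these groups fitted, and 4 with a replicate block in addition, an alternative chosen after seeing the data. With the replicate block over all 9 libraries it called 238, 46 and 0 genes, and of the listed genes 4, 0 and 0, with Hk2 lost in EAE against naive (adjusted p = 0.0505). With 1 library left out, edgeR called between 2 (without naive replicate 1) and 261 genes in EAE against naive and between 4 (without treated replicate 3) and 38 in treated against untreated EAE. Of the listed genes, 5, 0 and 0 were called by edgeR. DESeq2 called 20 and 18 in EAE against naive and in treated against untreated EAE, and edgeR without the filter on low counts called 1 in treated against untreated EAE. With 1 library left out, 0 to 6 listed genes were called in EAE against naive. Among the 5 single calls, Trpv4 was lost in 4 of 15 alternatives, Hspb1 in 5, Slc2a1 in 6, Hspb8 in 8 and Hk2 in 10. At 3 libraries per group and this depth, the Cirbp values of EAE and naive cortex overlapped.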
